A study of Homo sapiens with 4 samples.

Results

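TXNIP (thioredoxin-interacting protein), the thioredoxins TXN and TXN2, the thioredoxin reductases TXNRD1 and TXNRD2 and the peroxiredoxins PRDX1 to PRDX5 were examined in the liver cancer line Huh-7 (human hepatocellular carcinoma) with and without transforming growth factor beta (TGF-beta). The members were chosen by gene symbol, as all probe sets that the platform annotation gives to these 10 genes, around the fall of TXNIP after TGF-beta. Of the 10 genes, 9 had a probe set, with 18 probe sets of 22215 in all and 9 genes of 12165. No probe set used carries the symbol PRDX5, and this gene was not analysed here. Because TXNIP was picked for its fall in this comparison, its values are a description and carry no test, and the values of its partners come from that same comparison and support nothing about the choice.

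The 4 Affymetrix arrays comprised 2 of untreated Huh-7 cells and 2 of Huh-7 cells harvested 48 h after TGF-beta was added (treated), all grown in medium with 10% heat-inactivated fetal bovine serum. The sources used here do not state the dose. All arrays are of 1 cell line, and the labels number them 1 and 2 without saying whether they come from separate cultures, so errors and p-values reflect the spread of these arrays alone, which may be technical. The deposited intensities are linear and have 1 value per probe set and array, with medians of 50.1 to 51.0 and lower quartiles of 28.8 to 29.2 on the 4 arrays. A probe set near or below the array median is called dim here, since it has little room to fall. The 8 hepatocyte markers were all measured, with mean log2 intensities over the list of 12.55 to 12.67 in untreated cells and 12.71 to 12.72 after TGF-beta. Of these APOA1 rose (0.74, adjusted p = 0.0378, limma), TTR fell (-0.63, adjusted p = 0.0470, limma), and 6 did not pass. The leukocyte marker PTPRC and the endothelial markers VWF and CDH5 lay at log2 intensities of 4.91, 4.93 and 4.32 in untreated cells, near or below the lower quartile (4.85 to 4.87), while CD3D (7.92, leukocyte), PECAM1 (5.66, endothelial) and LUM (12.76, fibroblast) lay above it. Among the other markers PDGFRA (fibroblast, 8.28 to 9.03) and CD14 (leukocyte, 6.24 to 7.24) rose after TGF-beta. Values in the other direction that did not pass were -0.44 for COL1A1, -0.53 for DCN, -0.61 for CD3D and -0.34 for PECAM1. Those of COL1A1, DCN and PECAM1 come from dim probe sets. Other probe sets gave -0.15, 0.16 and 0.12 for COL1A1, -0.19, -0.0027 and -0.04 for DCN, and -0.09 and -0.43 for PECAM1. The mean of 6 fibroblast markers was 7.20 to 7.29 untreated and 7.14 to 7.22 treated, and that of 4 measured leukocyte markers 5.85 to 6.04 and 6.04 to 6.14. Their part in the results was not tested.

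Thioredoxins are small proteins that reduce disulfide bonds in other proteins through a pair of cysteines, and thioredoxin reductases, which are selenoproteins, restore them with electrons from NADPH. TXN and TXNRD1 serve the cytosol and nucleus, TXN2 and TXNRD2 the mitochondria. Peroxiredoxins remove hydrogen peroxide. PRDX1 and PRDX2 in the cytosol and PRDX3 in mitochondria spend the electrons of thioredoxin on it, while PRDX4 acts in the endoplasmic reticulum. TXNIP, an alpha-arrestin, binds reduced thioredoxin and also promotes the internalisation of glucose transporters. Its transcription is known to follow glucose through MondoA (MLXIP) and ChREBP (MLXIPL), which pair with MLX and bind paired E-boxes, together with the CCAAT-binding factor NF-Y.

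The upstream sequence of TXNIP is shown because paired E-boxes were found before it and before no other start of these genes. Those of TXN, which TXNIP binds, and of the first start of TXNRD1 are shown beside it. Both TXNRD1 starts held a match to the core of the antioxidant response element, as defined below. RefSeq sequences of build GRCh38.p14 were found for 8 of the 10 genes, with 13 start sites. TXN2 and PRDX1 were not in the table. Each window holds the 250 bases before a start and reads 5′ to 3′ on the gene's own strand. Capitals mark 3 motifs searched on both strands: paired E-boxes (CACGNG and a second CACGNG after a gap of 5 bases), the CCAAT box (ATTGG on the other strand), and the core of the antioxidant response element (TGAC and, after a gap of 3 bases, GC). TXNIP is on the minus strand at chr1:145996580-145996829, TXN on the minus strand at chr9:110256508-110256757, and the first start of TXNRD1 on the plus strand at chr12:104215529-104215778.
TXNIP: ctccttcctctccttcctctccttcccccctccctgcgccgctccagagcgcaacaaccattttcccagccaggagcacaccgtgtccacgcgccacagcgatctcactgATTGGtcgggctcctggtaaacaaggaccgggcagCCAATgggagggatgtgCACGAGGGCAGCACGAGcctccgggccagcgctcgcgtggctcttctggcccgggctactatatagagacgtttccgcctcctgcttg
TXN: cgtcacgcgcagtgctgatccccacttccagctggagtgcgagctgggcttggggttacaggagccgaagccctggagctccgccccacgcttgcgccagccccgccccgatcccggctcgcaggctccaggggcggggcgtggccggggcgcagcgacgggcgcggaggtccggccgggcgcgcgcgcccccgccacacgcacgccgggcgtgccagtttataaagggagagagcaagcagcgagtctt
TXNRD1: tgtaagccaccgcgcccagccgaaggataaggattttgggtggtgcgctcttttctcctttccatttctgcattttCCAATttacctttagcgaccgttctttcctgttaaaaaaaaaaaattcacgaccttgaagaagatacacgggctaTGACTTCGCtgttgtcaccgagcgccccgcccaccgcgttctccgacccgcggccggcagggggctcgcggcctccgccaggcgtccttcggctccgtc

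Paired E-boxes stood at 88 to 72 bases before the first TXNIP start, with CCAAT boxes at 140 to 136 (other strand) and 105 to 101 bases before it. No capitalised match overlaps another there, and a paired match holds 2 single E-boxes (CACGNG) by construction. The window before the second TXNIP start held none of the 3 motifs. TXN had a single E-box, at 247 to 242 bases, and no capitalised match. Both TXNRD1 starts held a CCAAT box and an antioxidant response core, the latter at 99 to 91 and 102 to 94 bases. PRDX3 and PRDX4 each held the E-box CACGTG, at 157 to 152 and 83 to 78 bases. ARRDC4, the alpha-arrestin closest to TXNIP in its known glucose response, held 3 CCAAT boxes and single E-boxes but not the spaced pair. Of 35116 start sites of 27305 genes, 16 (0.0456%) held the paired E-boxes, 32.0% a CCAAT box, 10.9% the antioxidant response core and 26.7% a single E-box. A match describes the letters only and does not show that a factor binds there.

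**Figure D1:**
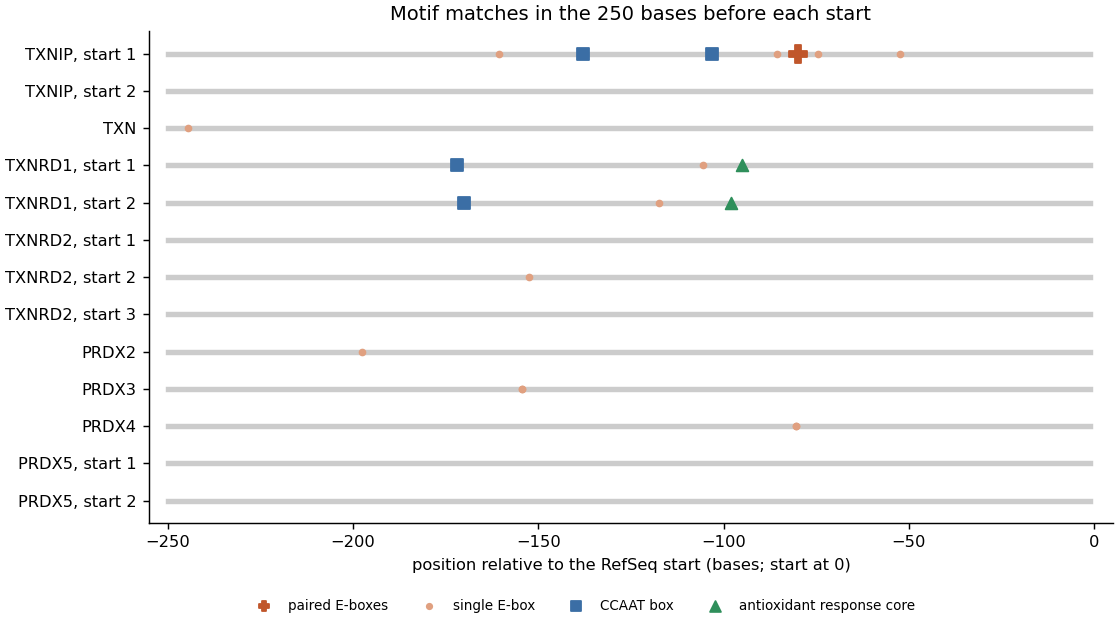
Motif matches in the 250 bases before 13 RefSeq start sites of 8 of the 10 genes, by distance from the start in bases; each symbol is 1 match, on either strand. Among these starts, paired E-boxes were found before TXNIP start 1, and the antioxidant response core before both starts of TXNRD1.

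TXNIP transcript intensity was lower after TGF-beta by all 3 of its probe sets. On the brightest, 201008_s_at, the intensities were 657 and 550.5 on the untreated arrays and 197 and 148 on the treated arrays. On 201009_s_at they were 499 and 417 against 136 and 108. On 201010_s_at they were 349 and 318 against 137 and 85.9. Both treated arrays were below both untreated arrays on each probe set, and the 4 arrays took the same order on all 3, with untreated 1 highest and TGF-beta 2 lowest.

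The mean log2 intensity of 201008_s_at was 9.23 ± 0.18 (SD, n = 2) in untreated cells and 7.42 ± 0.29 (SD, n = 2) after TGF-beta, a difference of -1.82 ± 0.16 (SE), so that the treated intensity was 0.284 of the untreated as a ratio of geometric means. The other probe sets gave log2 differences of -1.91 ± 0.15 and -1.62 ± 0.20 (SE). The smallest gap between an untreated and a treated array was 1.49 on the log2 scale for 201008_s_at, against 0.26 between the untreated arrays and 0.41 between the treated ones. The widest replicate gap of the gene was 0.67, between the treated arrays on 201010_s_at, the dimmest of its probe sets. All 3 carry the suffix _s_, used for probe sets that can match more than 1 transcript, and all lie under the same gene symbol, so they are not independent measurements. TXNIP had the lowest log2 difference of the 12165 genes, the value for which it was chosen. In total RNA of a dish, fewer cells with the transcript and less transcript per cell cannot be told apart.

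**Figure D2:**
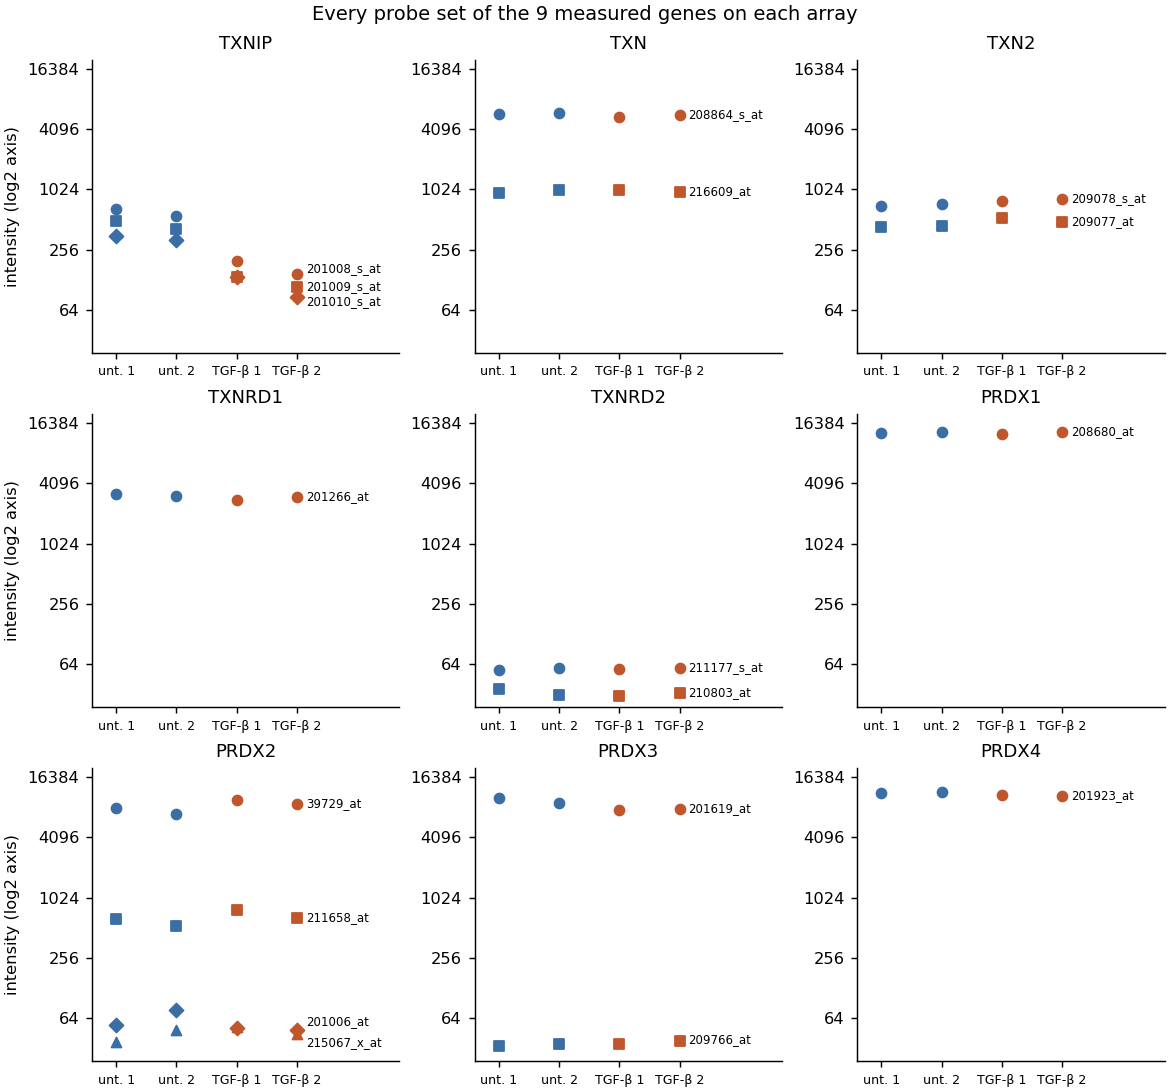
Intensity of each of the 18 probe sets (labelled; log2 axis) on the 2 untreated arrays (blue) and the 2 TGF-beta arrays (orange), 1 panel per gene; marker shapes separate the probe sets of a gene. The 3 TXNIP probe sets read 318 or more untreated and 197 or less treated, while the brightest probe set of each other gene differs by at most 0.30 (log2) between group means.

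None of the other 8 genes was called changed, a call being an adjusted p under 0.05 in limma's moderated test with Benjamini-Hochberg adjustment over all 12165 genes. By that rule 1.22% of all genes were called, 0.658% higher and 0.567% lower. Without adjustment, at p under 0.05, 1 of the 8 lay higher (PRDX2) and 1 lower (PRDX3), against 18.0% of all genes (9.35% higher and 8.6% lower). The median log2 difference of the 8 was -0.05, beside -0.0062 for all genes, with 3 positive and 5 negative values between -0.30 and 0.30. The arrays did not overlap between groups in 6 of the 8 genes, 4 lower and 2 higher, where 49.1% of all genes showed such a separation (25.9% lower and 23.3% higher). Of the 15 other probe sets 0 were called, beside 0.855% of all probe sets (0.41% higher and 0.446% lower). Without adjustment, 1 of the 15 lay higher and 2 lower, beside 16.3% of all probe sets (8.11% higher and 8.15% lower). The arrays did not overlap in 5 higher and 5 lower probe sets of the 15, beside 47.1% of all (22.2% higher and 24.9% lower). These shares are given as a description of few genes chosen for their function, and nothing is read from them.

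**Figure D3:**
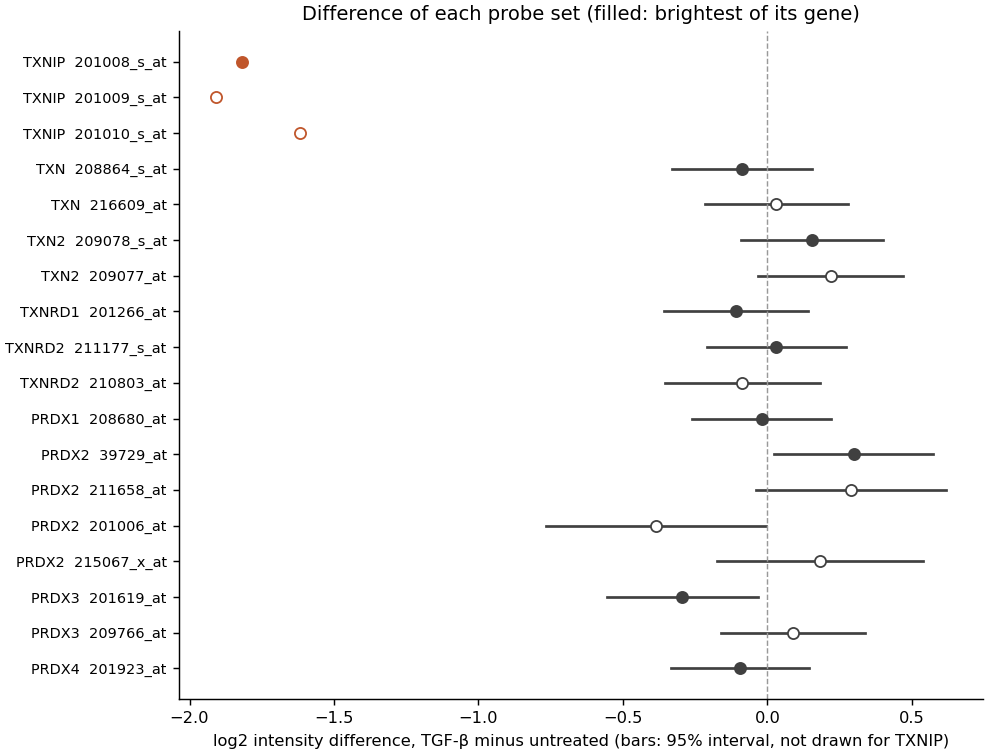
Log2 difference (TGF-beta minus untreated) of the 18 probe sets; filled points are the brightest probe set of a gene and bars are 95% intervals of the limma fit, not drawn for TXNIP. TXNIP lies at -1.91 to -1.62 and every other probe set between -0.39 and 0.30.

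TXN, the thioredoxin that TXNIP binds, did not pass the test. Its brightest probe set, 208864_s_at, read 5842 and 5983 untreated and 5448 and 5678 treated. The treated arrays lay just below the untreated ones, by 0.041 on the log2 scale at the nearest pair, and the log2 difference was -0.09 (95% interval -0.33 to 0.16, adjusted p = 0.727, limma). The second probe set, 216609_at, read 944 and 1001 against 1020.4 and 966, with overlapping arrays and a log2 difference of 0.03 ± 0.11 (SE).

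TXN2, the mitochondrial thioredoxin, was slightly brighter after TGF-beta on both probe sets without passing the test. On 209078_s_at the intensities were 705 and 735 against 778 and 827, a log2 difference of 0.15 (95% interval -0.09 to 0.40, adjusted p = 0.507, limma). On 209077_at they were 432 and 447 against 535 and 489, a log2 difference of 0.22 ± 0.11 (SE). The groups did not overlap on either probe set.

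Neither thioredoxin reductase passed. TXNRD1, the cytosolic enzyme and a textbook target of the transcription factor NRF2, read 3199 and 3067 untreated and 2798 and 3011 treated on its single probe set (201266_at). The treated arrays were lower, the nearer one by 0.027 on the log2 scale, and the log2 difference was -0.11 (95% interval -0.36 to 0.14, adjusted p = 0.662, limma). TXNRD2, the mitochondrial enzyme, was dim: 211177_s_at read 56.1 and 58.2 against 57.9 and 58.8, and 210803_at read 36.2 and 31.7 against 31.1 and 32.8. Both overlapped between groups, with log2 differences of 0.03 and -0.09, and these intensities leave less room for a fall than those of TXNRD1.

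Among peroxiredoxins, PRDX1 and PRDX4 gave differences of at most 0.10 on the log2 scale. PRDX1 gave 12971 and 13204 untreated and 12659 and 13171 treated, with overlapping arrays and a log2 difference of -0.02 (95% interval -0.26 to 0.22). PRDX4, the form of the endoplasmic reticulum, gave 11380 and 11553 against 10785 and 10672, so that both treated arrays were lower, with a log2 difference of -0.10 (95% interval -0.34 to 0.14). Neither passed the test (adjusted p = 0.954 and 0.695, limma).

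By brightest probe set, PRDX2 and PRDX3 showed the 2 largest differences beside TXNIP, in opposite directions, and neither passed. PRDX2, a cytosolic enzyme, read 8047 and 7055 untreated and 9671 and 8880.0 treated on its brightest probe set (39729_at), both treated arrays being higher. The log2 difference was 0.30 ± 0.12 (SE, 95% interval 0.02 to 0.58), with an adjusted p of 0.247 in limma. The second probe set, 211658_at, which the annotation derives from the same transcript record, read 632 and 527 against 774 and 643 and gave 0.29 ± 0.14 (SE).

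The 2 dim probe sets of PRDX2 gave values of opposite sign. On 201006_at the intensities were 55.0 and 77.1 untreated and 50.9 and 48.8 treated, a log2 difference of -0.39 ± 0.16 (SE) that rests largely on untreated array 2, since without that array it was -0.14. On 215067_x_at they were 37.3 and 48.6 against 51.9 and 44.9, with overlapping arrays and a difference of 0.18 ± 0.15 (SE). The mean over the 4 probe sets was 0.10 on the log2 scale.

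PRDX3, the mitochondrial peroxiredoxin, read 10136 and 8968 untreated and 7694 and 7846 treated on 201619_at. Both treated arrays were lower, by at least 0.19 on the log2 scale, against a gap of 0.18 between the untreated arrays. The log2 difference was -0.30 ± 0.11 (SE, 95% interval -0.56 to -0.03), with an adjusted p of 0.231 in limma. Its second probe set, 209766_at, was dim (34.1 and 35.5 against 35.6 and 38.4) and gave 0.09 ± 0.11 (SE). When the prior variance was allowed to follow intensity, both PRDX2 (adjusted p = 0.0287) and PRDX3 (adjusted p = 0.0210) were called by limma, so that the lack of a call for these bright genes depends on that choice. Under the other alternatives tried, their adjusted p lay above the threshold.

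**Figure D4:**
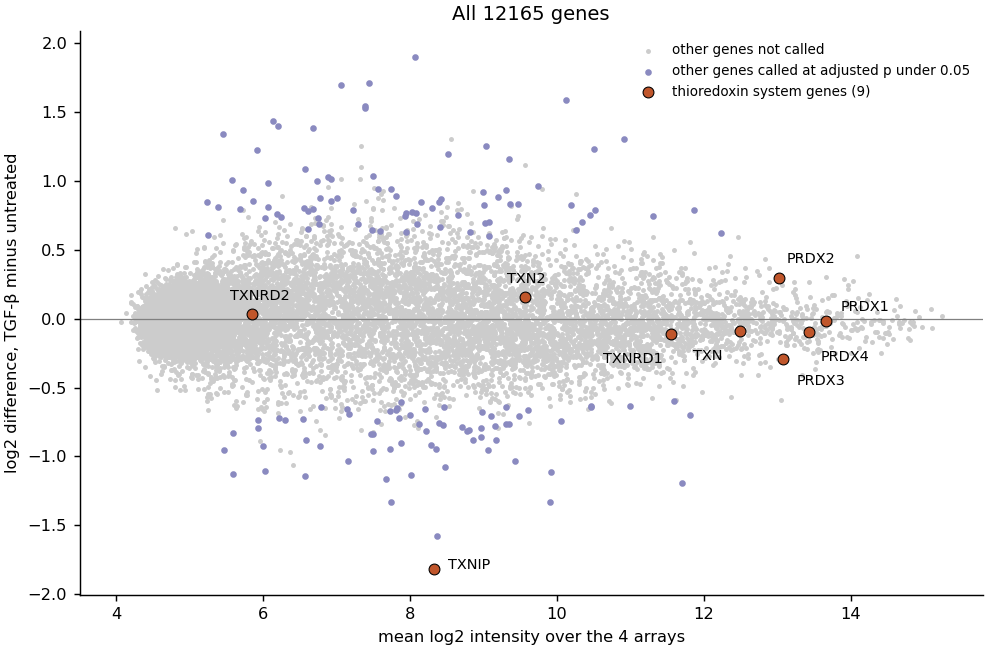
Log2 difference (TGF-beta minus untreated) against mean log2 intensity for all 12165 genes, 1 probe set each; other genes called at an adjusted p under 0.05 are in blue-violet, and the 9 thioredoxin system genes are in orange with black rims whatever their p. TXNIP is the lowest point at -1.82, and the other 8 lie within 0.30 of 0, most of them at high intensity.

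The members of the mitochondrial branch did not share a direction: PRDX3 stood at -0.30, TXN2 at 0.15 and TXNRD2 at 0.03 on the log2 scale. In the cytosolic branch TXN stood at -0.09, TXNRD1 at -0.11, PRDX1 at -0.02 and PRDX2 at 0.30. Across the 9 genes, the 6 with more than 1 probe set agreed in sign over all probe sets for TXNIP and TXN2, while TXN, TXNRD2, PRDX2 and PRDX3 each had probe sets of both signs. In the last 3 of these, a dim probe set was involved.

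The genes whose pattern over the 4 arrays was most like that of TXNIP were CSTA, NUPR1, TTN, ASNS and LRRC23, by the root mean square distance between log2 profiles centred on their own means. CSTA (cystatin A, a protease inhibitor) was nearest at 0.26, with intensities of 579 and 560.0 against 178 and 205. NUPR1, a stress-induced nuclear protein, followed at 0.29, TTN (titin) at 0.35, ASNS (asparagine synthetase) at 0.36 and LRRC23 at 0.38. The measure favours genes with large falls. Of the thioredoxin genes PRDX3 was nearest, at 0.78 and rank 881 of 12164, and PRDX2 the farthest, at 1.06 and rank 10772.

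By the brightest probe set of each gene, the known regulators of TXNIP transcription and turnover had 0 calls among 11 measured genes in limma. Without adjustment 0 were at p under 0.05 on these probe sets, beside 18.0% of all genes. The list had a median log2 difference of 0.02. MLX, the common partner of MondoA and ChREBP, read 890.2 and 884 untreated and 932 and 925 treated, a log2 difference of 0.07 ± 0.10 (SE). Its other probe sets gave -0.11, -0.07 and -0.04. MLXIP (MondoA) was dim, at 53.5 and 48.3 against 62.4 and 57.1, and its difference was 0.23 ± 0.11 (SE, adjusted p = 0.341, limma). MLXIPL (ChREBP) was dim as well, with overlapping arrays and a difference of -0.12 ± 0.14 (SE). The NF-Y subunits NFYA, NFYB and NFYC stood at -0.04, -0.10 and 0.16 on their brightest probe sets. Their other probe sets gave 0.09 to 0.33 for NFYA, -0.42 and -0.33 for NFYB and 0.15 to 0.43 for NFYC. The highest of NFYA and of NFYC and both of NFYB had an unadjusted p under 0.05 in limma, and none was called.

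PRKAA1, a catalytic subunit of AMP-activated protein kinase, which marks TXNIP for degradation, had the smallest p of this list, at -0.29 ± 0.14 (SE, adjusted p = 0.324, limma). ITCH, the ubiquitin ligase of TXNIP, stood at -0.16 on its brightest probe set, and its other probe sets gave -0.27 and -0.42. Both of the latter had an unadjusted p under 0.05 in limma and neither was called (adjusted p = 0.275 and 0.163). FOXO1 and FOXO3, transcription factors of the insulin pathway, varied between the untreated arrays, of which arrays 1 and 2 read 79.2 and 136 for FOXO1 and 159 and 314 for FOXO3. Without untreated array 2 they stood at 0.70 and 0.73 on these brightest probe sets, and with it at 0.31 and 0.23. The other probe set of FOXO1 gave 0.13, and those of FOXO3 gave 0.02, -0.23 and 0.08. The 5 alpha-arrestins of the ARRDC family, the relatives of TXNIP, have no probe set among those used and were not analysed here.

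Of proteins that TXNIP or thioredoxin bind or regulate, 0 of 9 were called (limma). Without adjustment 0 were higher and 1 was lower at p under 0.05, beside 9.35% and 8.6% of all genes. The median of the list was -0.11. The 1 was DDIT4 (REDD1, an inhibitor of the growth kinase mTOR and a partner of TXNIP), which read 89.0 and 97.8 against 70.0 and 64.0, a log2 difference of -0.48 ± 0.11 (SE, adjusted p = 0.0859). SLC2A1, the glucose transporter GLUT1 that TXNIP withdraws from the cell surface, read 70.4 and 70.1 untreated and 81.2 and 79.5 treated. Its difference was 0.19 ± 0.10 (SE, adjusted p = 0.381, limma), while its other, dimmer probe set gave -0.18. MAP3K5 (ASK1), a stress kinase that reduced thioredoxin holds inactive, was dim and stood at -0.18 ± 0.15 (SE).

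Substrates of thioredoxin had 0 calls among 7 measured genes (limma). Without adjustment 1 was higher and 1 lower, beside 9.35% and 8.6% of all genes. The median of the list was 0.0067. PAPSS2, which makes the sulfate donor PAPS, read 1454 and 1506 against 1012 and 1123, a log2 difference of -0.47 ± 0.11 (SE, adjusted p = 0.0812), and its other probe sets gave -0.33 and -0.28. With a prior variance that follows intensity it was called (adjusted p = 0.0209, limma). RRM2, the small subunit of ribonucleotide reductase, read 2086 and 2116 against 2685 and 2522, a log2 difference of 0.31 (adjusted p = 0.189, limma). Its other probe set gave 0.56 and was called (adjusted p = 0.0413, limma) when probe sets with the suffixes _s_ and _x_ were left out. Over all probe sets without that filter its adjusted p was 0.0640. RRM1, the large subunit, stood at 0.0067.

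Other genes of the thioredoxin fold and their reductases included PRDX6, glutaredoxins and protein disulfide isomerases. By brightest probe set they had 0 calls among 20 (limma), with 2 higher and 0 lower without adjustment. Their median was 0.02. On these probe sets NXN (nucleoredoxin) had the smallest p, at 0.28 ± 0.10 (SE, adjusted p = 0.213), with intensities of 597 and 597 against 736 and 716. GLRX (a glutaredoxin) stood at -0.26 on its brightest probe set. Its other probe set read 1470 and 1248 against 774 and 895, a log2 difference of -0.70 ± 0.13 (SE). It was not called over all probe sets (adjusted p = 0.0640, limma). PDIA6 stood at -0.17, and its other probe sets gave -0.22, 0.10 and -0.29. The last had an unadjusted p under 0.05 in limma and was not called. PRDX6, the peroxiredoxin that draws on glutathione rather than thioredoxin, stood at -0.03 ± 0.10 (SE). Of 4 genes that repair or regulate overoxidised peroxiredoxins, only SESN1 (sestrin 1) was measured, at -0.36 ± 0.15 (SE, adjusted p = 0.272, limma), and it was dim. SRXN1 (sulfiredoxin) was not analysed here.

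Among enzymes that remove peroxide or superoxide by other means, 1 of 9 rose and 0 fell, beside 0.658% and 0.567% of all genes. Without adjustment 2 were higher and 1 was lower at p under 0.05, beside 9.35% and 8.6% of all genes. The lower one was GPX7 at -0.30 ± 0.11 (SE). GPX2, a glutathione peroxidase known from the gut epithelium and a textbook NRF2 target, read 1081 and 827 untreated and 2135 and 2304 treated. It rose 2.35-fold, a log2 difference of 1.23 ± 0.15 (SE, adjusted p = 0.0233, limma), with both treated arrays above both untreated ones. The call was lost without TGF-beta array 1 (adjusted p = 0.207, limma) or TGF-beta array 2 (adjusted p = 0.197, limma). Catalase (CAT) stood at -0.17, GPX1 at -0.07, GPX4 at 0.0063, SOD1 at -0.12 and SOD2 at -0.20, and the median of the list was -0.07.

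NRF2, the transcription factor that drives TXNRD1 and many detoxifying genes, was measured through its gene NFE2L2 at 6483 and 6135 against 6002 and 6499, with overlapping arrays and a log2 difference of -0.01 ± 0.11 (SE). The list of NRF2, KEAP1, small MAF proteins and textbook NRF2 targets had 15 measured genes. Of these 2 rose (KEAP1 and MAFF), 1 fell (SLC7A11) and 12 did not pass, with a median of 0.06, while 1.22% of all genes were called. Without adjustment 4 were higher and 1 was lower, beside 9.35% and 8.6% of all genes. KEAP1, the adaptor that sends NRF2 to degradation, rose 1.80-fold, from 199 and 223 to 381 and 379 (adjusted p = 0.0259, limma). MAFF, a small MAF protein that pairs with NRF2, rose 2.29-fold, from 209 and 281 to 554 and 556 (adjusted p = 0.0256, limma). Its other probe set was dim and gave 0.41 ± 0.12 (SE, adjusted p = 0.138, limma). SLC7A11, the cystine transporter, fell by 1.07 on the log2 scale (adjusted p = 0.0193, limma), with -1.03 and -0.36 on its other probe sets. NQO1, a quinone reductase and classical target, stood at -0.15, and its other probe sets gave 0.15 and -0.18. The 4 calls of these lists, GPX2, KEAP1, MAFF and SLC7A11, were lost without TGF-beta array 1 (adjusted p = 0.200 to 0.277) or without TGF-beta array 2 (adjusted p = 0.130 to 0.197). In both of these limma fits 0 of 12165 genes were called (1326 and 1563 at an unadjusted p under 0.05), and the 4 values stayed at -1.20 to -0.95 for SLC7A11 and 0.85 or more for the others.

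**Figure D5:**
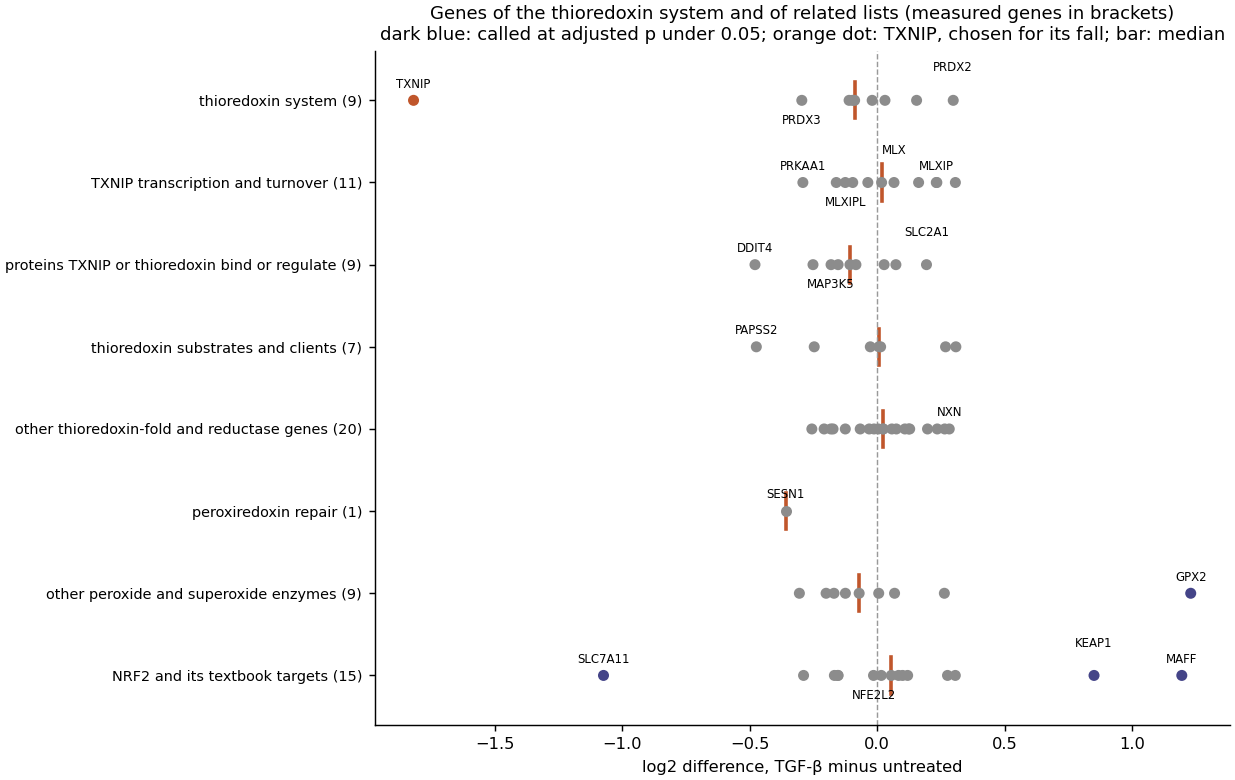
Log2 difference (TGF-beta minus untreated) of each measured gene of the thioredoxin system and of 7 related lists; dark blue dots were called at an adjusted p under 0.05, the orange dot is TXNIP and vertical bars are medians. The called genes of the related lists are GPX2, KEAP1, MAFF and SLC7A11, and the list medians lie between -0.36 (1 gene) and 0.06.

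The other genes with paired E-boxes in their upstream window were looked up after the values were seen, so they are described with the values of the fit over all genes and no test of the group. Of the 16 genes, 12 were measured. Leaving TXNIP aside, 7 of 11 were negative and 4 positive, with a median log2 difference of -0.13, a range of -0.35 to 0.55 and 0 calls in limma, beside 1.22% of all genes. ATP5ME (-0.13) and MYL5 (0.32), which lie on opposite strands, share the same match at chr4:674433-674449, so the genes do not all hold separate matches. Without adjustment 5 of the 11 were at p under 0.05, beside 18.0% of all genes. The matches of TXNIP, GFPT1, KCTD5, MTHFS and RAN are shown as examples of the motif with different letters at its open positions, read along the strand of the motif, with the E-boxes in capitals. They lie at chr1:145996651-145996667, chr2:69387317-69387333, chr16:2682290-2682306, chr15:79897188-79897204 and chr12:130871953-130871969.
TXNIP: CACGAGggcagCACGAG
GFPT1: CACGCGccgctCACGCG
KCTD5: CACGAGcggtgCACGAG
MTHFS: CACGGGgaccgCACGAG
RAN: CACGCGcgggcCACGTG

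GFPT1, the first enzyme of the hexosamine pathway, stood at -0.30 ± 0.11 (SE, adjusted p = 0.212, limma). KCTD5 stood at 0.55 ± 0.13 (SE, adjusted p = 0.0812) and MTHFS, an enzyme of folate metabolism, at -0.14 ± 0.14 (SE). RAN, a GTPase of nuclear transport, stood at 0.02 ± 0.10 (SE).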

How the data were processed

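Per the labels' protocols, total RNA was extracted with TRIzol and labelled with biotin. The deposited values are probe set intensities, 1 per probe set and array, made with the affy package, per the submitters' processing notes. How affy was run, its version and the genome build are left unstated by these sources. Quartiles were nearly equal between arrays, so no further scaling was applied.

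The members and lists were chosen with earlier results of these data known. Probe sets were named through the platform annotation, with symbols updated by Entrez number through RefSeq GRCh38.p14. Of 22215 probe sets, 19724 name 1 gene, 568 several and 1923 none. The probe set with the highest mean stands for each gene. The deposited intensities were taken to log2 without an offset, and TGF-beta was compared with untreated cells by lmFit and eBayes in limma 3.58.1 (R 4.3.3), over all 12165 genes and separately over all 22215 probe sets, for the values of members' other probe sets. Moderation gave 7.41 degrees of freedom. Errors marked SE and 95% intervals are from these fits. The number of arrays limits the precision.

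Named genes are all members, up to 3 called genes per list and direction (or the smallest p), the 5 nearest to TXNIP and 9 fixed by name, of which ARRDC3, ARRDC4 and SRXN1 had no probe set. Any other gene is named with its values known. Simulated data had 12165 genes, 10 runs and 200 changed genes each, with variances drawn from limma's own fitted prior and independent normal noise. In these data 92.6% of changes of 1 on the log2 scale and 98.9% of changes of 1.5 were recovered, and 4.60% of calls were false. Such data meet the assumptions of the fit, so these rates need not hold for the deposited arrays. Plots were drawn with matplotlib 3.10.9.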

Additional observations from a re-analysis of the deposited data

How the results depend on the processing

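The TXNIP difference stayed between -1.84 and -1.73 under quantile normalization, median centring, an offset of 16, removal of dim genes, the mean of all probe sets, an intensity trend and the replicate block, and between -2.02 and -1.61 when 1 array was left out. Without _x_ and _s_ probe sets TXNIP had no value. The count of called genes was 149, and became 63 under quantile normalization, 92 without dim genes, 616 with an intensity trend and 1229 with the replicate block, and 0 to 523 when 1 array was left out (0 without either TGF-beta array, 345 without untreated array 1 and 523 without untreated array 2). Small values changed sign: TXNRD2 was -0.028 with the mean of all probe sets and -0.087 without _x_ and _s_ probe sets, TXN 0.031 without them, and PRDX1 lay between -0.048 and 0.0093 when 1 array was left out. Of single probe sets, 216609_at (TXN) lay between -0.012 and 0.073, 210803_at (TXNRD2) between -0.18 and 0.0092, and 215067_x_at (PRDX2) between -0.0097 and 0.37 when 1 array was left out. The deviations of arrays with the same number correlated at 0.0097, so the numbers were not taken to pair the samples. The replicate block changed no call among the 8 genes other than TXNIP. With it DDIT4 (adjusted p = 0.0108) and PAPSS2 (adjusted p = 0.0115) were called in limma, and TXNL1 (adjusted p = 0.0455) was called with the intensity trend. The cause of these shifts was not tested. TXNRD2 and the dim probe sets of PRDX2 and PRDX3 lie near or below the array median, which limits what can be seen of them.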
